A study of Sorghum bicolor with 4 samples.

Results

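The peaks described here are the 1029 peaks on small unplaced scaffolds in a chromatin immunoprecipitation sequencing (ChIP-seq) peak list for SbGhd7, a transcription factor of sorghum. They were chosen by place alone. A scaffold entered when its name marks it as unplaced and when its length, for which the last base of its last peak stands, was under 100 kb. This gave 298 of the 354 unplaced scaffolds with a peak, and 2.57% of the 40087 peaks of the list, which come from 364 sequences. The other unplaced scaffolds, 56 in number, held 3517 peaks, and the 10 chromosomes held 35541.

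The study used mesophyll protoplasts of Sorghum bicolor, which are leaf cells freed of their walls, made to express SbGhd7 transiently overnight at 24 °C. The groups were chromatin precipitated with an antibody against Myc (IP), with 2 samples, and input chromatin without an antibody, also with 2 samples. All 4 samples carried the SbGhd7 expression, and an IP from cells without it was not analysed here. The labels give the cells as protoplast only, name no sorghum line, and do not say whether the samples came from separate preparations.

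The authors deposited a single peak list for the series, so no value below can be assigned to a sample. Which IP and input samples the list rests on is not stated. No difference between IP samples or between input samples could be set beside a result, and no test was made. Each fold is the authors' value for a peak, the IP fragments at the summit over the local background, each with 1 added. The number of IP fragments at the summit (the pileup) and the number expected there (the background) were recovered from the fold and the p-value. The 95% intervals reflect counting error alone. The libraries had no molecular identifiers, so amplified copies of 1 molecule may be counted more than once. The alignment name in the peak names holds MkDup, which may stand for marking of such copies. Whether they were left out before peaks were called is not stated. The depth of each library is unknown.

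SbGhd7 belongs to the plant proteins with a CCT domain, and its relatives in grasses hold back flowering in long days. Unplaced scaffolds are stretches of sequence that an assembly could not assign to a chromosome. In plant genomes they often hold repeats, pieces of near-identical copies and fragments that resemble organelle DNA. A peak caller compares IP fragments with a local background, and a region that exceeds it over many bases is reported as 1 long peak. No genome sequence was used here and the sources name no build for the list, so no scaffold is given a sequence, a gene or a type of repeat. Positions on scaffolds count from 1 and follow the deposited list.

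The small scaffolds fell into 3 classes by the share of their length that lay under peaks. On 33 scaffolds, or 11.1%, peaks covered 80% or more, and these are called nearly wholly covered. On 65 scaffolds peaks covered between 20% and 80%, and on 200 scaffolds, or 67.1%, they covered under 20%, as separate narrow peaks. The nearly wholly covered scaffolds held 55 peaks, the partly covered ones 135 and the scaffolds with separate peaks 839. Short as they are, the nearly wholly covered scaffolds made up 23.5% of all peak-covered bases on small scaffolds, with 91.1 of 388.0 kb. Widths and lengths define these classes, so a difference in width between them is a description and not a finding. Fold and background come from the same comparison that gave the peaks, and are described likewise.

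Peaks per scaffold were few in both of the outer classes. Nearly wholly covered scaffolds held between 1 and 3 peaks with a median of 2, and 14 of them held a single peak, 16 held 2 and 3 held 3. Scaffolds with separate peaks also had a median of 2, but ranged up to 43, and 81 of the 200 held 1 peak. Relative to length, the nearly wholly covered scaffolds carried 0.538 peaks per kb, against 0.986 on partly covered scaffolds and 0.241 on scaffolds with separate peaks. Only scaffolds with a peak count, and their length ends with the last peak, so short scaffolds have high values by construction. The median peak was 1334 bp wide (quartiles 889 and 2370) on nearly wholly covered scaffolds and 225 bp wide (quartiles 170.5 and 316.5) on scaffolds with separate peaks. A width of 900 bp or more was reached by 41 of 55 peaks on nearly wholly covered scaffolds and by 10 of 839 separate peaks, and by 1.73% of all peaks of the list.

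**Figure D1:**
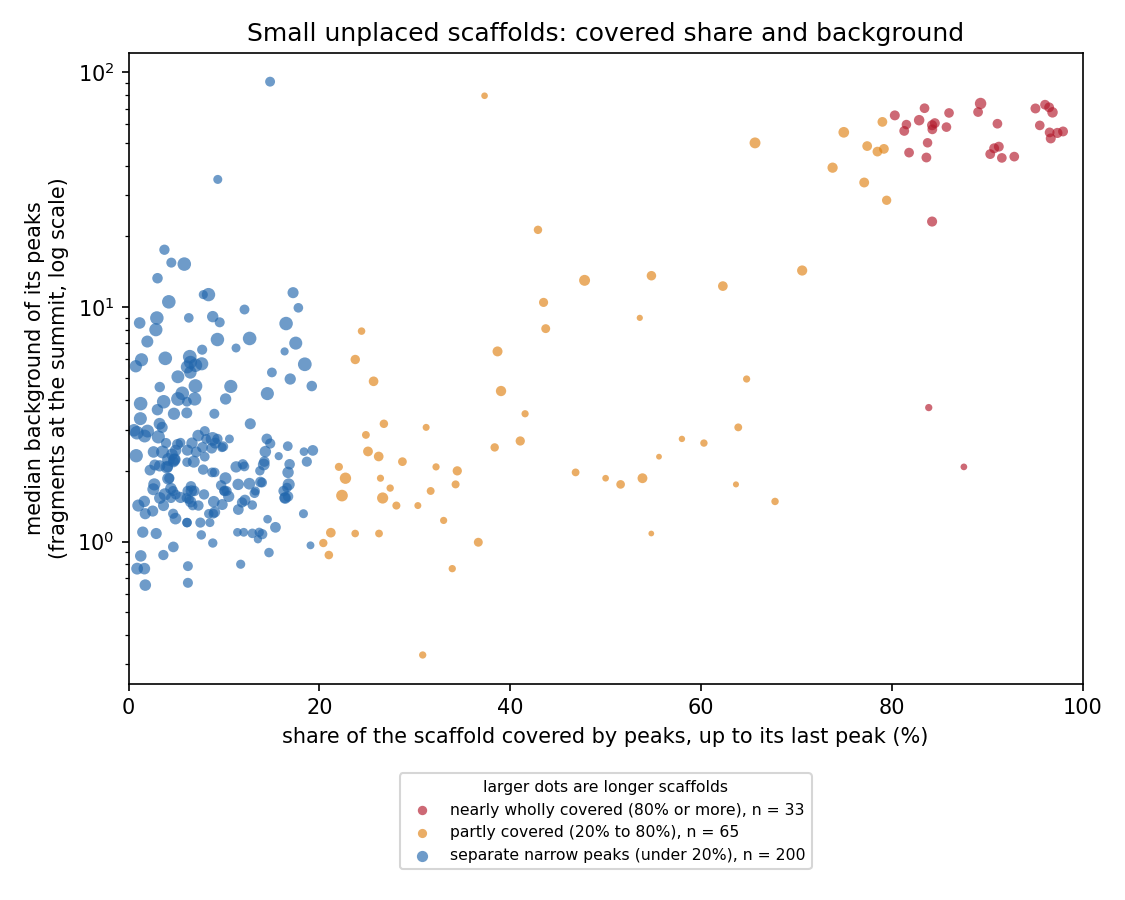
Each dot is 1 of the 298 small scaffolds, with the share of its length under peaks on the horizontal axis (%) and the median background of its peaks on the vertical axis (fragments, log scale). Of the 33 scaffolds at 80% or more, 31 sit at a background of 20 or more, while 198 of the 200 scaffolds under 20% sit below 20.

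Background separated the classes more clearly than the fold did. The median background at peak summits was 55.7 fragments (quartiles 46.7 and 66.9) on nearly wholly covered scaffolds, against 3.83 fragments (2.15 and 6.68) on scaffolds with separate peaks. A background of 20 fragments or more was found at 53 of 55 peaks on nearly wholly covered scaffolds, or 96.4% (95% Clopper-Pearson interval 87.5 to 99.6). On scaffolds with separate peaks it was found at 36 of 839, or 4.29% (3.02 to 5.89). In the whole list the share was 1.16%. Peaks on 1 scaffold are not independent of each other, so these intervals are too narrow. The background could still differ widely within a scaffold, as on super_91, where it ran from 2.14 to 69.98 fragments.

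The fold followed with a smaller gap. Its median was 4.60 (quartiles 4.29 and 5.06) on nearly wholly covered scaffolds and 3.45 (2.98 and 4.10) on scaffolds with separate peaks. The added 1 lowers the fold most where the background is low, and without it the medians were 4.71 on nearly wholly covered scaffolds and 4.30 on scaffolds with separate peaks. A fold of 5 or more was found at 16 of 55 peaks on nearly wholly covered scaffolds and at 51 of 839 separate peaks, against 8.22% of all peaks. That contrast depends on the added 1. Without it, the upper quartile was 5.14 on nearly wholly covered scaffolds, 5.33 on scaffolds with separate peaks and 5.67 over all peaks. The median over all peaks was then 4.81, above that of either class. The median −log10 q was 86.0 on nearly wholly covered scaffolds and 3.61 where peaks were separate. At a given fold it rises with the background, so it ranks these peaks high by their fragment number. A −log10 q of 5 or more was reached by 54 of 55 peaks on nearly wholly covered scaffolds and by 259 of 839 separate peaks, against 20.9% of all peaks.

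The nearly wholly covered class held 2 scaffolds unlike the other 31. The scaffold super_360 had 1 peak, at 52 to 410, with 12 IP fragments over a background of 2.08. The scaffold super_1839 had 1 peak, at 90 to 552, with 19 IP fragments over a background of 3.72. Both had a low background, and both count as covered because the length used ends with the last peak, here after 410 and 552 bp. Scaffolds with higher numbers in their names reached 74605 bp in the first case and 4247 bp in the second. If the numbers run from long to short, which the sources do not state, the covered shares would be at most 0.481% and 10.9%. On that reading at most 18 of the 33 scaffolds stay at 80% or more, since the raised lengths are still lower bounds, and super_360 and super_1839 are not among them. Others described below also fall under 80%, such as super_527 (76.9%), super_1157 (66.1%), super_2072 (76.0%) and super_2229 (65.6%).

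The other 31 scaffolds had the following ranges, in which the place of the first peak and the size of the gaps are bounded by the covered share of 80% or more. Their lengths ran from 2265 to 10619 bp with a median of 2859 bp, and 23 of the 31 measured 2500 to 3500 bp. The scaffold medians of the background lay between 23.1 and 73.6 fragments, and those of the fold between 3.94 and 5.91. Before the first peak lay 19 to 631 uncovered bases, with a median of 109. On 12 of these scaffolds there was a single peak, 2359 to 4676 bp wide, and the other 19 had 2 or 3 peaks. A last peak reaches the end of its scaffold by the way length is taken. The 22 gaps measured 138 to 775 bp with a median of 262.5 bp.

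**Figure D2:**
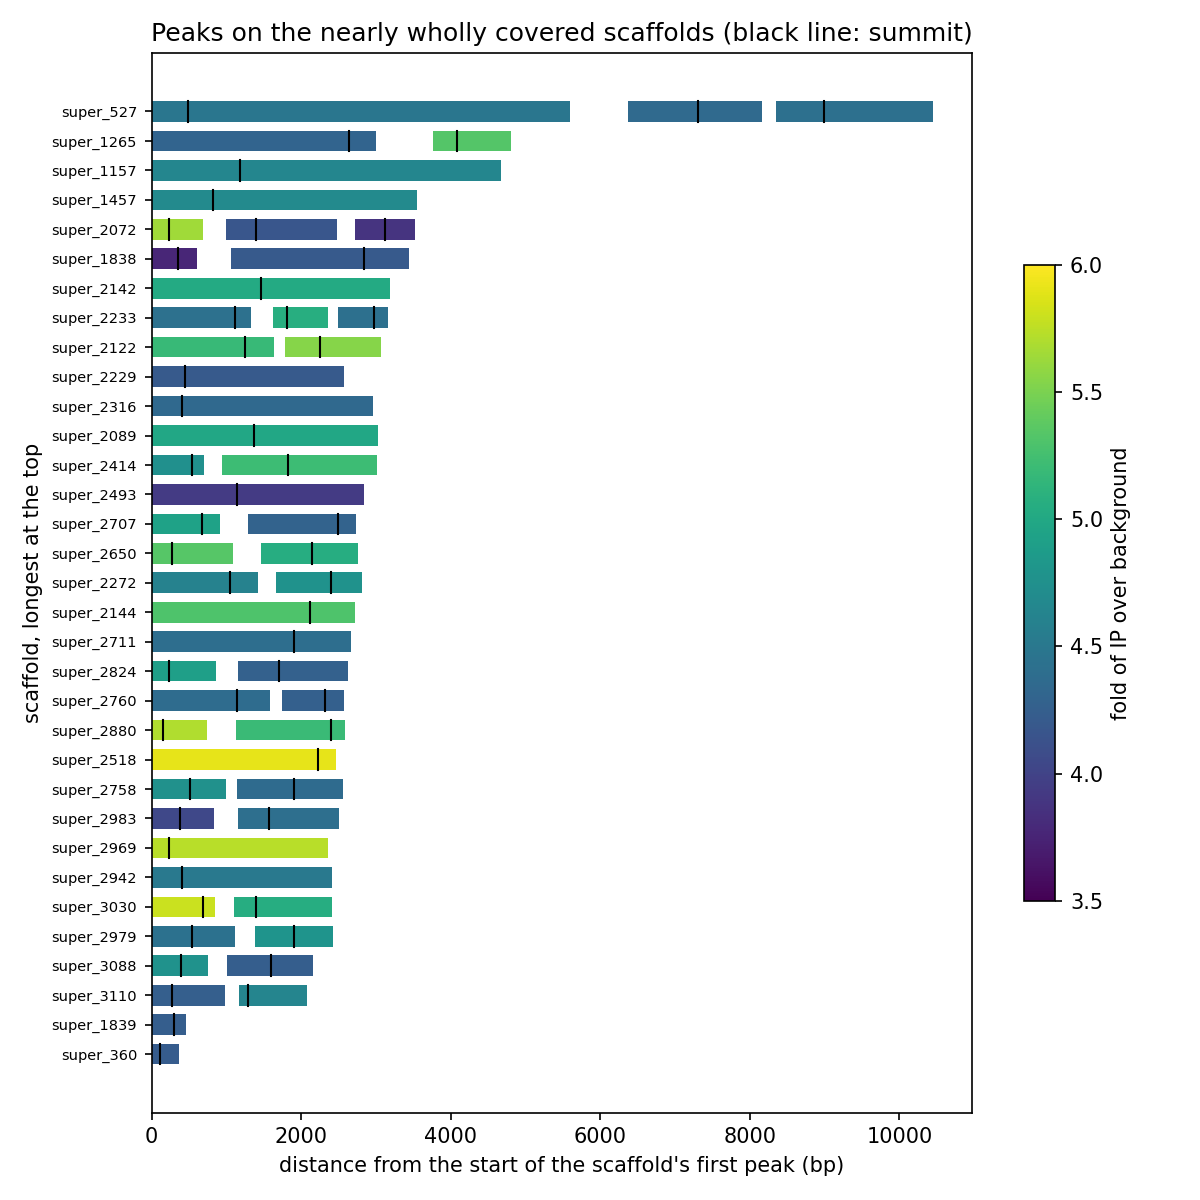
Each row is 1 of the 33 nearly wholly covered scaffolds, longest at the top. Bars are peaks placed by their distance from the start of the first peak (bp), coloured by fold, and black lines are summits. Most rows are filled by 1 to 3 bars with gaps of 138 to 775 bp, and the 2 short rows at the bottom are super_1839 and super_360.

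The longest of them, super_527, was covered over 89.3% of 10619 bp by 3 peaks. Its first peak, at 166 to 5764, was the widest of all peaks on small scaffolds with 5599 bp. That peak had 343 IP fragments over a background of 75.8 and a fold of 4.48 (4.02 to 4.98). The other peaks of super_527 had folds of 4.35 and 4.41, so the 3 folds lay within the counting interval of the first. The scaffold super_1157 held a single peak at 153 to 4828, with 317 IP fragments over a background of 67.5 and a fold of 4.64 (4.15 to 5.18). A single peak was also found on super_1457, at 97 to 3641, with 262 IP fragments over a background of 55.1 and a fold of 4.69 (4.14 to 5.29). The length used ends with that peak, so how far either scaffold extends beyond it is unknown. The counting intervals of these 3 long peaks overlap.

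Others of the 6 longest were broken into several peaks. On super_1265, with 4863 bp the second in length, a peak of 2995 bp with 340 IP fragments and a background of 78.3 was followed, after 772 bp, by a peak of 1035 bp with 253 IP fragments. Its folds were 4.30 and 5.33, and the pileup intervals did not overlap. On super_2072 the 3 folds were 5.65, 4.17 and 3.88 from one end to the other, over pileups of 244, 251 and 290. There the background differed more than the pileup. The lowest backgrounds of the class, apart from the 2 short scaffolds, were on super_1838, with a median of 23.1 fragments, pileups of 82 and 109 and folds of 3.77 and 4.20. Among the 22 neighbouring pairs on nearly wholly covered scaffolds, the higher fold exceeded the lower by 1.01 to 1.36 times with a median of 1.09. The pileup intervals were apart in 6 of the 22 pairs.

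By median background, super_527 led the class with 73.6 fragments, followed by super_2711 with 72.7, super_2493 with 70.9, super_2983 with 70.3 and super_2316 with 70.1. The next 5 were super_2760, super_1157, super_2979, super_2229 and super_1265, with 67.7, 67.5, 67.1, 65.5 and 62.5 fragments. Their median folds ran from 3.94 on super_2493 to 4.81 on super_1265, so the scaffolds of highest background were not those of highest fold. The highest folds of the class were 5.91 on super_2518 (5.22 to 6.66), with a background of 43.7, and 5.80 on super_3030 (5.15 to 6.51), with 48.3. Over the 53 peaks of the 31 scaffolds, Spearman's rho was 0.883 between pileup and background and -0.536 between fold and background. These points share scaffolds, and the fold is computed from the background, so the values are descriptions.

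The −log10 q put this class at the head of the small scaffolds. The top value was 122.7 for the peak at 1204 to 2516 of super_3030, with 350 IP fragments over a background of 68.5. It was followed by 119.5 for the peak at 1700 to 2434 of super_2233, with 340 IP fragments over 66.3, and by 113.9 for the other peak of super_3030. Next came 109.4 on super_2144 and 106.9 on super_2518, each the only peak of its scaffold. Of the 10 highest values, 9 were on nearly wholly covered scaffolds and 1, of 104.3, on the partly covered super_1097. All 10 of the widest peaks, from 2664 to 5599 bp, were on nearly wholly covered scaffolds, as the class rule favours.

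Partly covered scaffolds divided by background. A median background of 20 or more was found on 11 of the 65, with 28 peaks, a median width of 899.5 bp and a median fold of 4.88. The other 54 scaffolds had 107 peaks with a median background of 2.30, a median width of 246 bp and a median fold of 3.84. Among these 54, 28 were shorter than 1000 bp by their last peak and 35 held a single peak, so that their share rested on where that peak lay. Between 60% and 80% covered, 9 of 16 scaffolds had a background of 20 or more, against 1 of 15 between 40% and 60% and 1 of 34 between 20% and 40%. Backgrounds from 60% upward thus included those of the nearly wholly covered class.

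Among the longest partly covered scaffolds both kinds appeared. The scaffold super_1137 was covered over 74.97% of 5769 bp by 4 peaks with a median background of 55.5 and folds from 4.19 upward. The scaffold super_1097 was covered over 65.7% of 6844 bp by 4 peaks with a median background of 50.0 and a median fold of 4.71. By contrast, super_370 held 10 peaks over 22.4% of 13192 bp at a median background of 1.57, with folds of 2.53 or more. The scaffold super_249 held 7 peaks over 22.7% of 9857 bp at a median background of 1.86, and super_236 held 6 peaks over 26.6% of 8605 bp. Backgrounds in between were found on super_1169, where 6 peaks reached at most 16.6 fragments over 47.8% of 7076 bp.

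At the limits of the classes the values were as follows. Just above 80%, super_2229 had a share of 80.3% with a background of 65.5, and super_2707 a share of 81.3% with 56.2. Just below it, super_3060 had 79.5% with 28.5 and super_2980 had 79.2% with 47.1. Just above 20%, super_1620 had 20.4% with a background of 0.986 and super_2728 had 21.0% with 0.876, while super_835 had 19.3% with 2.45 and super_1062 had 19.2% with 4.60 just below it. At the length limit, super_77 reached 99693 bp and super_82 reached 98184 bp, with covered shares of 5.17% and 6.999%. The nearest large scaffolds, super_75 with 100362 bp and super_60 with 105029 bp, had shares of 4.36% and 4.25%.

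The scaffolds with separate peaks made up most of the small scaffolds, and backgrounds and folds differed between length groups. The 27 small scaffolds of 50000 bp or more all had separate peaks, and they held 440 peaks, with a median of 15 peaks a scaffold. Their peaks had a median background of 5.70 and a median fold of 3.28. The 35 small scaffolds of 10000 to 20000 bp, 33 of them with separate peaks, held 129 peaks with a median background of 1.86 and a median fold of 3.95. The values of the shorter group include the peaks of super_527, nearly wholly covered, and of super_370, partly covered. The median width was 242 bp on the longer scaffolds and 204 bp on the shorter ones. At 5000 to 10000 bp the medians were a background of 2.23, a fold of 3.86 and a width of 243.5 bp. At 20000 to 50000 bp they were 3.34, 3.41 and 240 bp, so the width did not run with length. Neighbouring separate peaks lay a median of 1448 bp apart, and 242 of 639 gaps were under 1000 bp.

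The 6 longest scaffolds with separate peaks were super_77, super_82, super_83, super_90, super_85 and super_84, from 87281 to 99693 bp. The most peaks of any small scaffold, 43, were on super_90, where they covered 18.5% of 94429 bp. One peak of super_90 was 2329 bp wide, the widest among separate peaks, but the median there was 257 bp. The scaffold super_84 had 12 peaks over 87281 bp and none in its first 33403 bp. Median folds of the 6 scaffolds lay between 3.17 on super_85 and 3.75 on super_90. The highest background on each ran from 7.23 on super_83 to 30.8 on super_85.

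High backgrounds were found in all 3 classes, and the separate peaks among them had the lowest folds. At a background of 40 to 80 fragments, the nearly wholly covered scaffolds had 49 peaks on 30 scaffolds, with folds from 3.88 to 5.91 and a median of 4.63. Separate peaks at the same background numbered 9 on 4 scaffolds, with folds from 1.44 to 2.98 and a median of 2.49. The 2 ranges did not overlap. The background range was chosen after the values were seen, and the classes rest on peak widths, so this is a description. All 180 peaks of the list at this background had folds from 1.44 to 5.91, with a median of 4.46. The pileups ran from 199 to 350 fragments for the nearly wholly covered scaffolds and from 82 to 169 for the separate peaks. Their widths were 143 to 486 bp, against 676 bp or more on nearly wholly covered scaffolds. Partly covered scaffolds had 18 peaks in this range with a median fold of 4.89 (quartiles 4.44 and 5.16), near that of the nearly wholly covered ones, and a lowest fold of 1.48. The highest background of all small scaffolds, 127.6 fragments, was at a narrow peak of super_2042, at 764 to 1076, with 201 IP fragments and a fold of 1.57 (1.36 to 1.80). A peak of 147 bp on super_2485 had a background of 79.4 and a fold of 1.48 (1.23 to 1.77).

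**Figure D3:**
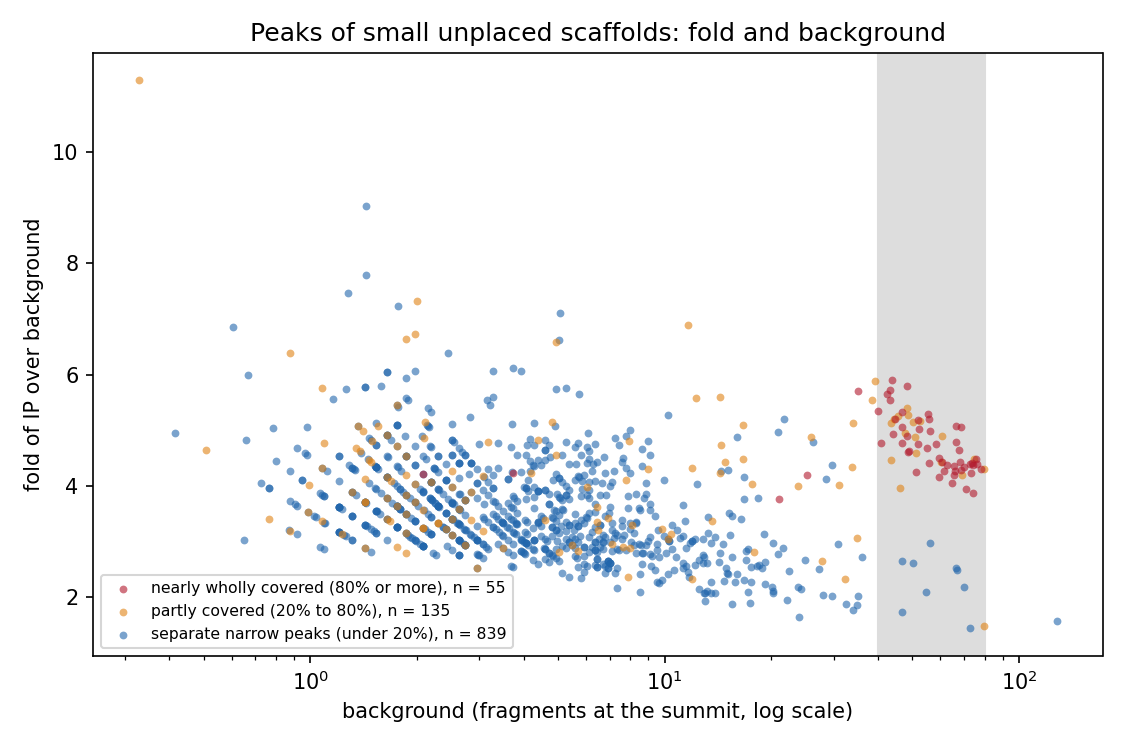
Each dot is 1 of the 1029 peaks on small scaffolds, with its background (fragments at the summit, log scale) on the horizontal axis and its fold on the vertical axis. In the shaded range of 40 to 80 fragments, peaks of nearly wholly covered scaffolds lie at folds of 3.88 to 5.91 and separate peaks at 1.44 to 2.98.

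Set beside the rest of the list, values like those of the nearly wholly covered scaffolds were found on a few large scaffolds. Large scaffolds had 83 peaks with a background of 40 to 80 fragments, on 10 scaffolds, with a median fold of 4.53 and a median width of 2051 bp. Of these, 35 were on super_16, 23 on super_70 and 12 on super_57. Peaks covered 94.2% of super_57, so it shares the trait that defines the class, against 45.9% of super_70 and 19.2% of super_16. Without super_57 and super_16, 36 peaks were left with a median fold of 4.17 and a median width of 1010.5 bp. Their folds on super_70 ran from 3.78 to 5.47, close to those of nearly wholly covered small scaffolds, whereas the 4 such peaks of super_43 had folds of 2.47 to 2.92 and widths of 160 to 343 bp. Chromosomes had 21 peaks at this background, with a median fold of 3.55 (range 1.499 to 5.75) and a median width of 277 bp.

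At lower backgrounds, the median fold of small scaffolds lay beside that of large scaffolds, and below that of chromosomes at 5 to 20 fragments. At a background under 5, the 595 peaks on small scaffolds had a median fold of 3.69 (95% order-statistic interval 3.63 to 3.77) and a median width of 214 bp. The 1529 such peaks on large scaffolds had 3.70 (3.64 to 3.74) and 232 bp, and the 34202 on chromosomes 3.75 (3.74 to 3.76) and 221 bp. At 5 to 20 fragments the median folds were 3.10 on small scaffolds (3.01 to 3.22), 3.14 on large scaffolds (3.10 to 3.19) and 3.31 on chromosomes (3.26 to 3.36). These intervals take peaks as independent, which neighbouring peaks are not.

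**Figure D4:**
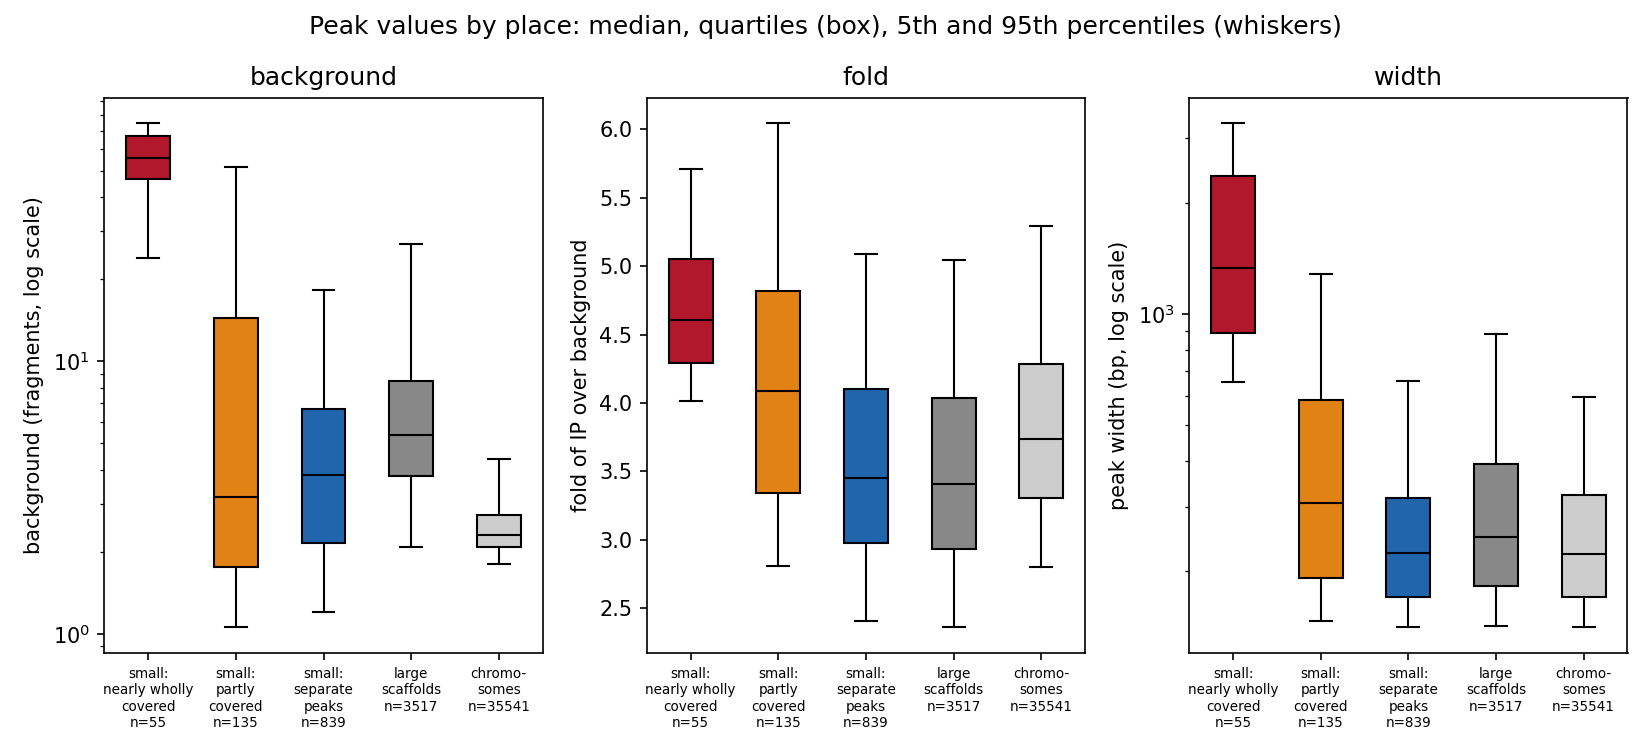
Boxes give the median and quartiles, and whiskers the 5th and 95th percentiles, of background (fragments, log scale), fold and peak width (bp, log scale) for the 3 classes of small scaffolds, the large scaffolds and the chromosomes. The nearly wholly covered class stands at a median background of 55.7 and a median width of 1334 bp, and the separate peaks at 3.83 and 225 bp.

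The 10 highest folds on small scaffolds lay outside the nearly wholly covered class, and most of them rested on few fragments. The top fold was 11.3 (6.51 to 18.4), at 387 to 558 of super_2660, from 14 IP fragments over a background of 0.329, the lowest of the whole list. The next were 9.02 (5.74 to 13.6) at 6492 to 7197 of super_797 and 7.79 (4.79 to 12.1) at 2135 to 2269 of super_1650, each with a background of 1.44. Both intervals overlap that of super_2660. They were followed by 7.47 on super_83, 7.33 on super_2768 and 7.24 on super_274, from 16, 21 and 19 IP fragments. The fold of 7.099 on super_93 rested on 42 IP fragments over a background of 5.06, and that of 6.90 on super_1169 on 86 over 11.6. The other 8 of the 10 highest folds rested on 10 to 21 IP fragments, over backgrounds from 0.329 to 2.00.

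A background under 1 fragment was found at 30 peaks on small scaffolds, 2 on large scaffolds and 3 on chromosomes. That is 2.92% (1.98 to 4.14) of the peaks on small scaffolds, 0.0569% (0.00689 to 0.205) of those on large scaffolds and 0.00844% (0.00174 to 0.0247) of those on chromosomes. Over all peaks of the list it is 35 of 40087, or 0.0873%. Of the 30 on small scaffolds, 27 (90%) lay within 1000 bp of a scaffold end, against 37.7% of all peaks on small scaffolds. A scaffold ends here with its last peak, so every last peak counts as near an end. Whether nearness to an end bears on the background was not tested. The pileups of these 30 ran from 4 to 14 fragments with a median of 6.5. Their median fold was 4.11, against 3.57 for the other peaks on small scaffolds. The fold is computed from the background by which these 30 were chosen, so the difference in fold is a description and not a finding.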

How the data were processed

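The series has IP and input chromatin of sorghum protoplasts, 2 samples each. Its deposited values are 1 peak list of 10 columns with no header. The submitters' processing notes list the aligner BWA, version 0.7.17.2, and the peak caller MACS2, version 2.2.7.1. The sources used here do not state their settings, the genome build, or how replicates and reads with several matches were handled. Every peak name carries the same alignment name, and whether the list rests on 1 IP library or on pooled libraries is not stated. The deposited list gives a fold ratio, the −log10 of p and of q, the distance of the summit from the peak's start, and a score that equals 10 times the −log10 p, truncated, in 40085 rows.

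In MACS2 the fold is the pileup over the background, each with 1 added, and p is a Poisson tail. From these, all 40087 peaks gave 1 and only 1 pileup within a relative tolerance of 2e-05, a step tested on simulated data. The background is taken to come from the input, which the list does not state. Lengths are lower bounds and covered shares upper bounds, most so on short scaffolds. Intervals are exact Poisson on pileups (folds hold the background fixed), Clopper-Pearson on shares and binomial order-statistic intervals on medians.

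The scaffolds, classes and limits were chosen with earlier results of these data known. Named are the 6 longest scaffolds of each class, the 10 nearly wholly covered ones of highest median background, those beside each limit, and the 10 peaks highest in fold, −log10 q and width; others, such as super_360, super_1839, super_2042, super_2485 and the large scaffolds, were chosen after their values were seen. The background ranges of 40 to 80, under 5 and under 1, and the limit of 20, were also chosen after the values were seen. The work ran in Python 3.11.15 with pandas 2.3.3, numpy 2.4.6, matplotlib 3.10.9 and scipy 1.17.1.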

Additional observations from a re-analysis of the deposited data

How the results depend on the processing

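Of 129 values recomputed under 10 settings, 90 stayed within 1.5 times the count or within the 95% interval of the median, and 39 moved. Of the settings, 2 were chosen after seeing the data. With a length limit of 50000 bp, 589 peaks remained in place of 1029, and separate peaks had medians of 208 bp width, 2.18 background, 3.64 fold and 3.08 −log10 q. With 200000 bp the peaks numbered 1740, and separate peaks had a median background of 4.71 and −log10 q of 3.88. A minimum −log10 q of 5 left 378 peaks on 140 scaffolds, and separate peaks had medians of 1 peak a scaffold, 284 bp, 6.02 background, 4.17 fold and 7.18 −log10 q. With scaffolds of 5000 bp or more, 122 scaffolds were left, and super_527 with its 3 peaks was the 1 nearly wholly covered scaffold (medians 2097 bp, background 73.6, −log10 q 99.6). Separate peaks then had medians of 3 a scaffold and 4.27 background. With scaffolds of 2 or more peaks, 167 scaffolds were left, 19 of them nearly wholly covered, and separate peaks had a median of 3 a scaffold. Classes at 90% and 10% gave 15 nearly wholly covered scaffolds with 19 peaks of median width 2408 bp, and separate peaks of 211 bp. A single limit of 50% gave 57 covered scaffolds with 105 peaks and medians of 931 bp, 46.7 background and 81.2 −log10 q. Without the added 1, the median fold of separate peaks was 4.30. With each length raised to the last peak end of any higher-numbered scaffold, 18 scaffolds with 29 peaks were nearly wholly covered. The counts moved because each setting keeps other peaks or scaffolds or puts scaffolds in other classes; for the medians the cause was not tested. No paired analysis was possible because single samples have no values in the list, which also kept replicates from being left out. Most separate peaks rest on few fragments, with a median pileup of 16, which limits the precision of their folds.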

Other observations

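The numbers in the scaffold names ran roughly with length. The longest last peak end was 1385973 bp among scaffolds numbered under 100, 119828 bp from 100 to under 500, 12340 bp from 500 to under 1000, 7076 bp from 1000 to under 1500, 4247 bp from 1500 to under 2000, 3928 bp from 2000 to under 2500, and 2977 bp from 2500 to under 3000. Nearly wholly covered scaffolds were most frequent from 2000 to under 3000, with 11 of 37 scaffolds from 2000 to under 2500 and 12 of 36 from 2500 to under 3000. From 3000 upward there were 3 of 20, and from 100 to under 500 there was 1 of 83. Over all 354 scaffolds Spearman's rho between number and last peak end was -0.880, a description since the true lengths were not used here. With lengths raised to the last peak end of any higher-numbered scaffold, the 18 scaffolds still covered over 80% were all among the 33, and each had a median background of 43.2 fragments or more.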
